A study of Homo sapiens with 6 samples.

Results

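The nuclear genes for subunits of the oxidative phosphorylation complexes were followed in RNA of the human cell line MDA-MB-231, established from a breast cancer of the triple-negative kind, with and without extra ADAR1 p110. Members were the protein-coding rows of the deposited gene table whose symbols begin with NDUFA, NDUFB, NDUFC, NDUFS or NDUFV and a digit, with UQCR, with COX4 to COX8, or with ATP5, or that equal SDHA, SDHB, SDHC or SDHD. The rule found 89 of the 60461 genes of the table, 37 for complex I, 5 for complex II, 9 for complex III, 19 for complex IV and 19 for complex V. Of these, 82 are subunits or related proteins. The other 7 are read-through genes, gene copies and a related locus (NDUFC2-KCTD14, a second row named SDHD, UQCRHL, ATP5EP2, ATP5L2, ATP5J2-PTCD1 and ATP5S). NDUFA4 and NDUFA4L2 were placed with complex IV, where the NDUFA4 protein is now known to belong. The rule uses symbols and no measured value, and it misses subunits with other names, CYC1 and NDUFAB1 among them.

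The study compared 3 libraries of cells given an adenovirus for ADAR1 p110, the mainly nuclear form of an adenosine-to-inosine RNA editing enzyme that acts on double-stranded RNA, with 3 libraries of cells given an adenovirus for enhanced green fluorescent protein (GFP). Both groups are the same cell line and both carry an adenovirus, added at a multiplicity of infection of 200, with the medium changed after 16 h and RNA taken at 48 h. According to the labels the replicates are biological, with nothing on how the cultures were kept apart, and the tests therefore measure only how far these 6 libraries spread. No library of untransduced cells was analysed here.

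Libraries held 72741235 to 99589278 counts, of which the members took 0.805% to 0.880%. ADAR itself was at 1006 ± 13.2 CPM in ADAR1 p110 cells and 267 ± 8.67 CPM in GFP cells (SD, n = 3 each), where CPM is the read count relative to a common library total, scaled by TMM to correct for library composition. The mesenchymal marker VIM averaged 2179 CPM in ADAR1 p110 cells and 1952 CPM in GFP cells, whereas ESR1 and PGR, the hormone receptor genes that this line lacks, had 10 and 3 counts over all 6 libraries. Other genes taken as low or absent in this line had counts. ERBB2 was at 90.1 CPM in ADAR1 p110 cells and 85.8 CPM in GFP cells, EPCAM at 10.6 and 10.2, and GATA3 at 3.61 and 3.54. CDH1 was at 4.15 and 2.80 CPM (log2 fold change 0.57, edgeR quasi-likelihood adjusted p = 0.00966). Of markers of other tissues, CD3E of T cells and MYH6 and MYH7 of heart had 0 counts in every library. On a principal component analysis of all tested genes, the first component, with 45.4% of the variance, separated the groups, ADAR1 p110 at -15.3 to -11.9 and GFP at 12.6 to 14.9. The second component, with 23.7% of the variance, separated a library of each group, ADAR1 p110 replicate 1 and GFP replicate 2, from the remaining 4, and results that rest on this pair are given with and without it.

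Oxidative phosphorylation passes electrons from NADH through complex I, or from succinate through complex II, to ubiquinone, then through complex III and cytochrome c to complex IV, which reduces oxygen. Complexes I, III and IV pump protons, and complex V, the ATP synthase, uses the gradient to make ATP. Nuclear genes encode all subunits of complex II and most of the others, and the mitochondrial genome encodes a few hydrophobic core subunits. Promoters of the nuclear genes often lack a TATA box and are known targets of nuclear respiratory factor 1 (NRF1), of ETS-family factors such as GABPA, of YY1 and of SP1.

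RefSeq promoter sequences on GRCh38.p14, from 250 bases before to 50 bases after a gene's start, were at hand for 67 of the 89 members. The other 22, ATP5D, SDHC and ATP5B among them, are not shown. An 80-base stretch upstream of the start follows for 6 members that the results turn on, each 5′ to 3′ on the gene's own strand and not all at the same distance. NDUFS7 is the core subunit with the smallest unadjusted p and UQCRFS1 the core subunit called when a pair of libraries was left out, COX6A1 and COX6A2 are the expressed and the unexpressed form of one subunit, and ATP5G1 and ATP5G2 (ATP5MC1 and ATP5MC2 in RefSeq) encode the same mature protein. Capitals mark matches to the NRF1 core (GCGCANGC), the SP1 core (GGGCGG) or a TATA box (TATAAA), on either strand.
NDUFS7: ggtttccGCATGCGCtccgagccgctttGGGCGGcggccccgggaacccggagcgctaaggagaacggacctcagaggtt
UQCRFS1: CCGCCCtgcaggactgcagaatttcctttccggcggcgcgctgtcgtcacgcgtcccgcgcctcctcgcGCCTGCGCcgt
COX6A1: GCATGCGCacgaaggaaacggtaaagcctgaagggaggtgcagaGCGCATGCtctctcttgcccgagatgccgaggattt
COX6A2: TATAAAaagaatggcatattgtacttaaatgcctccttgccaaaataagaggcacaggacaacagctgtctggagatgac
ATP5G1: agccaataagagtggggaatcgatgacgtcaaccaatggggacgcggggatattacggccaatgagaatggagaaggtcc
ATP5G2: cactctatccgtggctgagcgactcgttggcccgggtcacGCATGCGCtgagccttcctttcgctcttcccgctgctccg
The stretches lie at chr19:1383827-1383906 on the plus strand, chr19:29213170-29213249 on the minus strand, chr12:120437895-120437974 on the plus strand, chr16:31428482-31428561 on the minus strand, chr17:48892707-48892786 on the plus strand and chr12:53676084-53676163 on the minus strand. Relative to the start they run from -80 to -1 for NDUFS7, ATP5G1 and ATP5G2, from -98 to -19 for UQCRFS1, from -218 to -139 for COX6A1 and from -201 to -122 for COX6A2, whose TATA match thus begins at -201.

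The NRF1 core was found in the 300-base window of 27 of the 67 members (40.3%), against 11.98% of all 35116 promoters of the table. The YY1 core AANATGGC was found in 22 members (32.8%), against 6.58% of all promoters, and the ETS core CCGGAAG in 19 (28.4%), against 10.3%. The SP1 core was found in 40 members (59.7%), against 45.0%, and TATAAA in 7 (10.4%), against 11.5%. Both strands were searched, and matches of different motifs overlapped once, in 1 member. Member windows had a median GC content of 61.0% and 23 CpG sites, against 58.7% and 14 over all promoters, so the windows also differ in base composition. COX6A1 held 2 NRF1 matches, while COX6A2 held none and had a TATA match. Other forms differed the other way. The highly expressed COX8A held no NRF1 match, its near-absent form COX8C held 1, and the expressed COX7B held 2 TATA matches. The NRF1 core was found in 2 of 4 tissue forms of complex IV subunits, and in 25 of the 62 other subunits or related proteins. ATP5G1 held none of the 5 motifs and ATP5G2 held an NRF1 match, and their levels are given with complexes IV and V. A match is a stretch of letters and does not show that a factor binds.

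No member was called higher and none lower in ADAR1 p110 cells, of 80 that passed the filter on low counts, by edgeR's quasi-likelihood test with a Benjamini-Hochberg adjusted p under 0.05 over all genes tested. Over the 18899 genes tested the same rule called 4.91%, with 1.95% higher and 2.96% lower in ADAR1 p110 cells. At an unadjusted p under 0.05, 2 members passed (ATP5D and NDUFS7), against 18.6% of all genes. The DESeq2 Wald test called 1 member, ATP5D, against 6.89% of all genes, and limma-voom called 0, against 5.07%. Of the 9 members not tested, all low, 3 had 0 counts in all 6 libraries.

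The differences were small and evenly split in sign. Log2 fold changes of ADAR1 p110 over GFP were positive for 40 members and negative for 40, with quartiles of -0.05 and 0.04. They ran from -0.21 (ATP5L2, a low copy of the subunit g gene) to 0.28 (ATP5D). The median size of the change, regardless of sign, was 0.0458 in log2 for the members and 0.121 for all tested genes, and the median standard error was 0.0645 against 0.0958. A p above the threshold does not show equality, so the interval of each difference matters. The 95% interval of the fold change lay within 1.25-fold either way for 72 of the 80 members, against 8241 of the 18899 genes, and within 1.5-fold for 76, against 12252. The median level was 74.2 TPM for the members and 6.48 TPM for all tested genes, where TPM is the count per base of gene length scaled to a common sum, and the part of abundance in these counts was not tested. Of the 73 members at 10 CPM or more in either group, 71 had an interval within 1.25-fold, and the other 2 were ATP5D and SDHC.

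**Figure D1:**
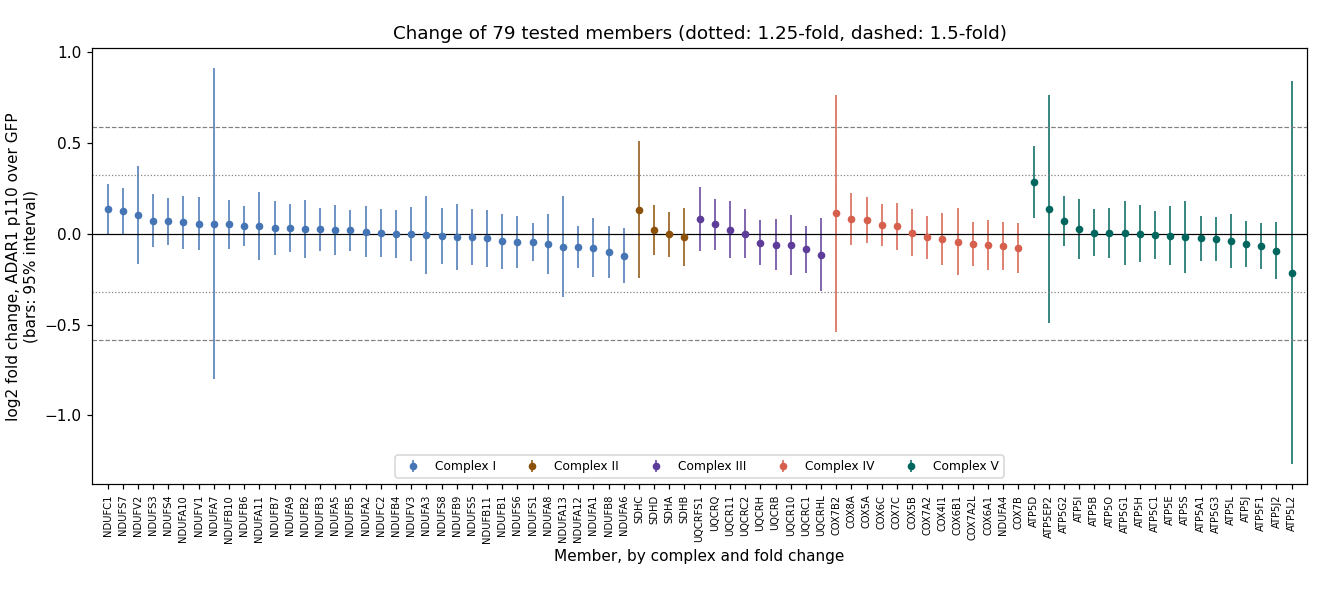
Log2 fold change of 79 of the 80 tested members, ADAR1 p110 over GFP, with its 95% interval, by complex, and lines at 1.25-fold and 1.5-fold. Points lie on both sides of 0 in every complex, ATP5D has the largest positive value at 0.28, and the widest intervals are those of ATP5L2, NDUFA7, COX7B2 and ATP5EP2, each under 1 CPM.

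Groups of 3 libraries did not overlap in CPM for 4 of the 80 members, all of them higher in ADAR1 p110 cells, against 24.0% of all tested genes. These were ATP5D, NDUFS7, NDUFC1 and NDUFB6. They are a smaller share of the members than the background.

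ATP5D, at chr19:1241745-1244825 on hg19, encodes the delta subunit in the central stalk of the F1 part of ATP synthase. It had 18.2, 19.4 and 18.5 CPM in ADAR1 p110 cells, against 13.4, 15.2 and 17.4 CPM in GFP cells. The ADAR1 p110 libraries all lay above the GFP libraries and close together, and the GFP libraries were spread. Means were 18.7 ± 0.668 CPM and 15.3 ± 1.99 CPM (SD, n = 3 each), a log2 fold change of 0.28 (SE 0.0902, edgeR quasi-likelihood adjusted p = 0.111), or 1.22-fold with a 95% interval of 1.06 to 1.40. With each library left out in turn, the log2 fold change ran from 0.20 without GFP replicate 1 (edgeR adjusted p = 0.322) to 0.39 without GFP replicate 3 (edgeR adjusted p = 0.0499, in a fit that called 2.40% of genes). GFP replicate 3 is the GFP library nearest to the ADAR1 p110 libraries, so leaving it out had to widen the difference. The other 5 fits with a library left out gave edgeR adjusted p-values of 0.0627 to 0.322. With all libraries, the adjusted p was 0.0455 by the DESeq2 Wald test, 0.105 by limma-voom, and 0.0159 by edgeR with no filter on low counts, where 4.57% of genes were called.

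NDUFS7 carries the last iron-sulfur cluster before the ubiquinone site of complex I, at chr19:1383526-1395588 on hg19. It had 30.9, 32.0 and 31.3 CPM in ADAR1 p110 cells, against 28.5, 27.7 and 30.0 CPM in GFP cells. Its groups were apart by less than 1 CPM at the nearest pair, and the log2 fold change was 0.13 (edgeR quasi-likelihood adjusted p = 0.267). NDUFC1, an accessory subunit of the membrane arm, had 21.0, 23.4 and 22.4 CPM in ADAR1 p110 cells, against 20.6, 20.5 and 19.7 CPM in GFP cells, with the largest log2 fold change of complex I (0.14, edgeR adjusted p = 0.283). The antisense neighbour NAA15 had 745% as many counts as NDUFC1, and whether counting used strand is not given in the sources used here. NDUFB6, an accessory subunit, averaged 59.6 ± 1.03 CPM in ADAR1 p110 cells and 57.9 ± 0.716 CPM in GFP cells (SD, n = 3 each), a log2 fold change of 0.04.

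**Figure D2:**
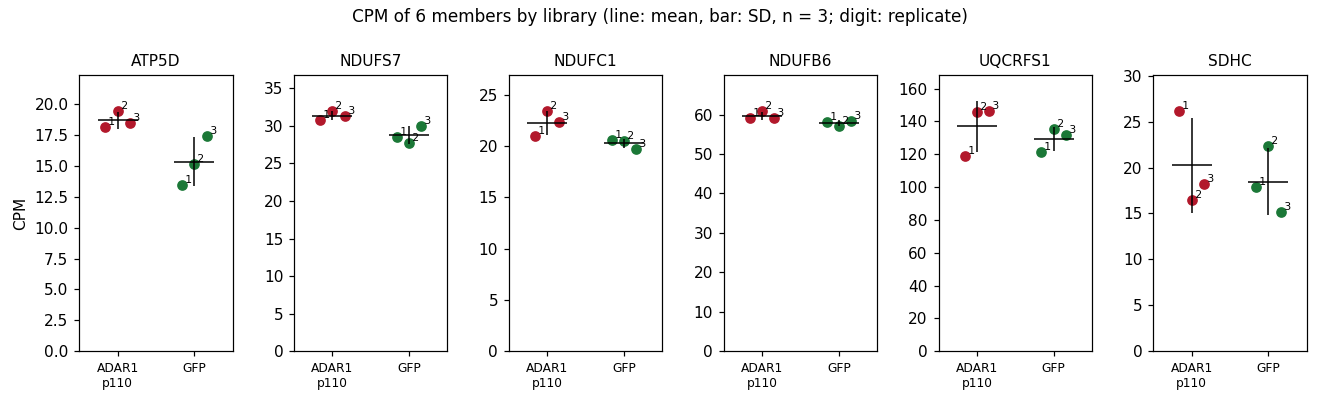
CPM in each of the 6 libraries for selected members, ADAR1 p110 left of GFP, with the digit giving the replicate, the line the mean and the bar the SD (n = 3). The groups of ATP5D and NDUFS7 do not overlap, while ADAR1 p110 replicate 1 lies below replicates 2 and 3 for UQCRFS1 and above them for SDHC.

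Complex I had 36 tested members, 20 with a positive and 16 with a negative log2 fold change and a median of 0.01. The 7 catalytic core subunits, which hold the flavin and iron-sulfur clusters, had a median log2 fold change of 0.07, and 5 of them were positive. None of them was called. NDUFV1, which binds NADH and the flavin, had 115, 125 and 126 CPM in ADAR1 p110 cells, against 122, 107 and 123 CPM in GFP cells, and the groups overlapped. NDUFS1, the largest iron-sulfur core subunit, had 217, 226 and 229 CPM in ADAR1 p110 cells, against 235, 231 and 226 CPM in GFP cells, with overlapping groups. The most negative log2 fold change of complex I was -0.12, of NDUFA6, an accessory subunit (edgeR adjusted p = 0.389), with 47.9, 54.0 and 53.3 CPM in ADAR1 p110 cells, against 57.1, 52.1 and 59.5 CPM in GFP cells. ADAR1 p110 replicate 1 was its lowest library, and the groups overlapped.

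Complex I core levels were far from equal per length. NDUFV1 averaged 76.9 TPM in ADAR1 p110 cells and 73.1 TPM in GFP cells, and NDUFS8 63.0 and 62.8. NDUFS1 was at 47.8 TPM in ADAR1 p110 cells and 48.8 TPM in GFP cells, and NDUFS3 at 40.0 TPM and 37.6 TPM. NDUFS7 was lower, at 10.9 TPM in ADAR1 p110 cells and 9.90 TPM in GFP cells, and NDUFV2, the iron-sulfur partner of NDUFV1, lowest at 4.54 TPM and 4.19 TPM. The highest complex I member was the accessory subunit NDUFS5, at 692 ± 17.9 TPM in ADAR1 p110 cells and 694 ± 35.6 TPM in GFP cells (SD, n = 3 each).

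Some of the lowest members overlap other genes, and the part that such overlap plays in their levels was not tested. NDUFA7, an accessory subunit of complex I, was at 0.479 TPM in ADAR1 p110 cells and 0.453 TPM in GFP cells. In an hg19 annotation (GENCODE 44 lifted over), 32.5% of its exon bases lay in another gene on the same strand, and its antisense neighbour RPS28 had 64001% as many counts. NDUFV2 shared 28.4% of its exon bases with another same-strand gene, and the pseudogene row NDUFV2P1 held 23.1% as many counts as NDUFV2. NDUFA13, at 3.08 TPM in ADAR1 p110 cells and 3.20 TPM in GFP cells, shared 21.0%. COX8A, at 35.4%, shared as much and was the highest member per length. In all, 21 of the 80 tested members shared exon bases in this way, and 14 had an antisense neighbour with at least 50% as many counts. The 151 rows named as pseudogenes of members held 9361 counts, 0.216% as many as the members themselves.

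**Figure D3:**
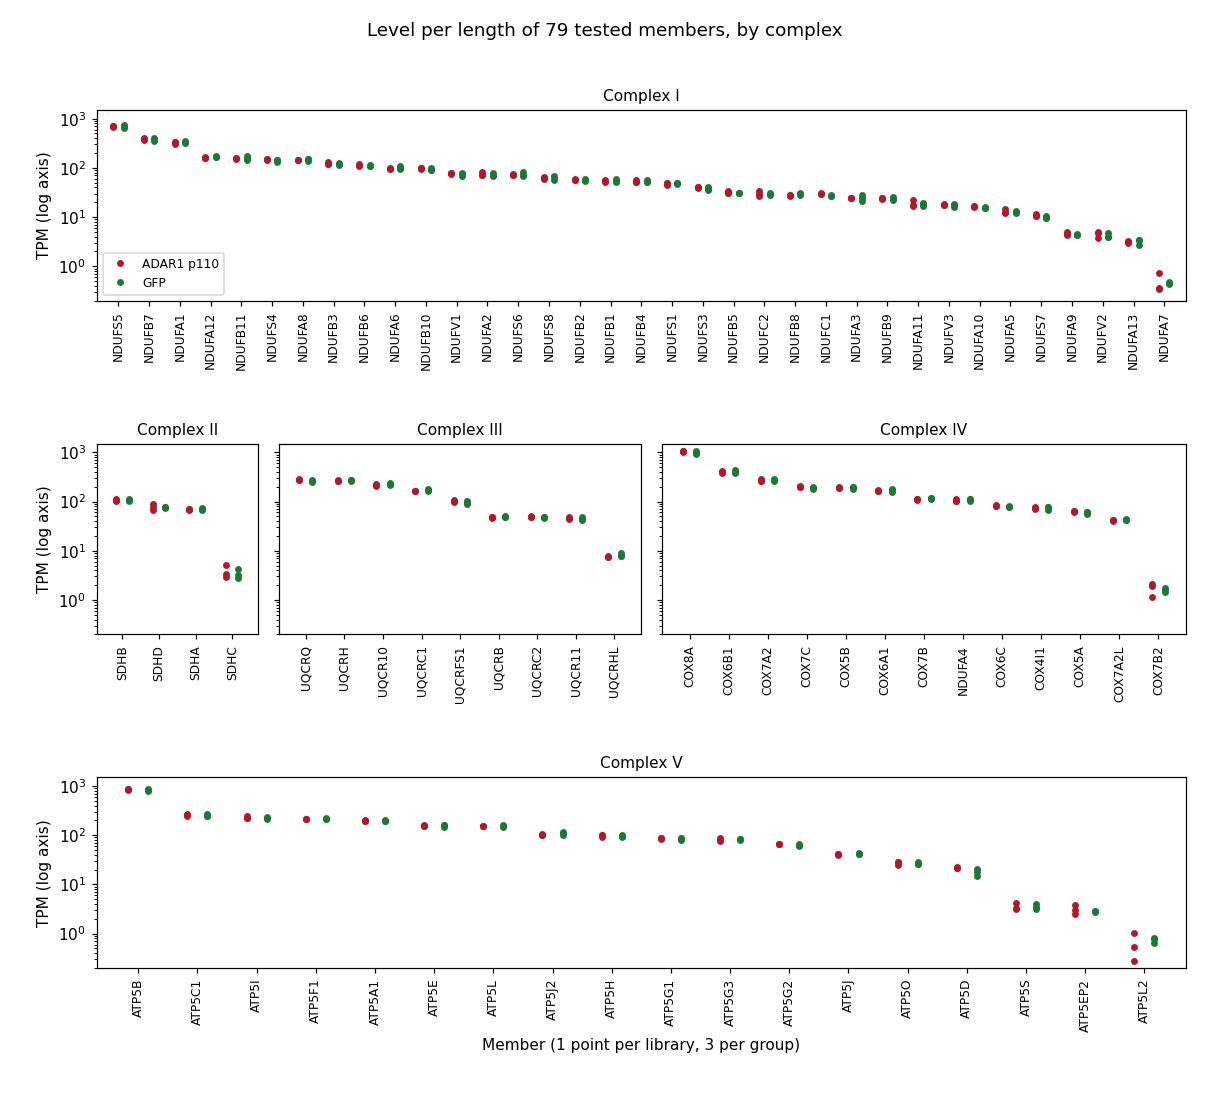
TPM of 79 of the 80 tested members on a log axis, by complex, with 1 point per library and ADAR1 p110 left of GFP. Levels within a complex span orders of magnitude, from a mean of 0.479 TPM (NDUFA7, ADAR1 p110 cells) to 692 TPM (NDUFS5, ADAR1 p110 cells) in complex I, while the points of both groups lie close together for most members.

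Complex II, the succinate dehydrogenase, is wholly nuclear-encoded and had 4 tested members, none called. Per length, SDHB, the iron-sulfur subunit, was at 108 TPM in both groups with the most negative log2 fold change of the 4 (-0.02), SDHD, a membrane anchor, at 78.0 TPM in ADAR1 p110 cells and 75.6 TPM in GFP cells, and SDHA, the flavoprotein, at 70.7 TPM and 70.1 TPM. SDHC, the other anchor, was lower, at 3.79 TPM in ADAR1 p110 cells and 3.38 TPM in GFP cells. SDHC had 26.1, 16.4 and 18.2 CPM in ADAR1 p110 cells, against 17.9, 22.4 and 15.1 CPM in GFP cells. The highest library of each group was one of the pair set apart on the second component, opposite to most members. Its log2 fold change was 0.13 with an SE of 0.171 (edgeR quasi-likelihood adjusted p = 0.750). Without that pair the log2 fold change was 0.07, and with each library left out it ran from -0.09 without ADAR1 p110 replicate 1 to 0.30 without GFP replicate 2, with no call.

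Complex III had 9 tested members, 4 positive and 5 negative, with a median log2 fold change of -0.05 and values from -0.12 (UQCRHL, a copy of UQCRH) to 0.08 (UQCRFS1). UQCRFS1, the Rieske iron-sulfur protein that takes electrons from ubiquinol (chr19:29696228-29704448 on hg19), had 119, 146 and 146 CPM in ADAR1 p110 cells, against 121, 135 and 132 CPM in GFP cells. ADAR1 p110 replicate 1 was its lowest library of all, and the groups overlapped. Its log2 fold change was 0.08 (SE 0.08, edgeR quasi-likelihood adjusted p = 0.653). Without ADAR1 p110 replicate 1 and GFP replicate 2 the log2 fold change was 0.21 and the edgeR adjusted p 0.00538, so UQCRFS1 was then called higher. That fit called 13.4% of genes and 2 members, UQCRFS1 and ATP5D (log2 fold change 0.30, edgeR adjusted p 0.0495). UQCRC1, a core protein, had 193, 214 and 201 CPM in ADAR1 p110 cells, against 222, 201 and 221 CPM in GFP cells, with overlapping groups and a log2 fold change of -0.09. Per length the highest member was UQCRQ, a small accessory subunit, at 276 TPM in ADAR1 p110 cells and 264 TPM in GFP cells, next to UQCRH, the hinge protein, at 263 and 269 TPM, a pair whose order differed between the groups.

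Complex IV had 13 tested members, 6 positive and 7 negative, with a median log2 fold change of -0.02 and values from -0.08 (COX7B) to 0.11 (COX7B2). COX8A, a small membrane subunit, was the member with the highest level per length of all complexes, at 1054 ± 26.1 TPM in ADAR1 p110 cells and 985 ± 73.1 TPM in GFP cells (SD, n = 3 each). Its counts came to 196, 214 and 203 CPM in ADAR1 p110 cells, against 199, 176 and 204 CPM in GFP cells. The groups overlapped, and GFP replicate 2 was lowest. COX4I1, the ubiquitous form of subunit IV, was at 73.8 TPM in ADAR1 p110 cells and 74.4 TPM in GFP cells, and COX5A, which sits on the matrix side, at 62.9 TPM and 59.0 TPM.

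Several complex IV subunits have alternative forms from separate genes, and here the ubiquitous form held nearly all of the RNA. COX4I2, a form of subunit IV known from lung and hypoxic cells, and COX6A2 and COX7A1, the heart and skeletal muscle forms, had 0 counts in all 6 libraries, where 3 counts, the limit that a count of 0 allows, correspond to 0.0304 to 0.0414 CPM per library. This limit covers counting error only. COX6A1, the other form of the COX6A2 subunit, was at 164 TPM in ADAR1 p110 cells and 169 TPM in GFP cells. COX8C had 2 counts in all and COX6B2 43, both known from testis. NDUFA4L2, a hypoxia-induced relative of NDUFA4, had 27. COX7B2, another testis form, was at 1.51% of the COX7B family by TPM in ADAR1 p110 cells and 1.35% in GFP cells. COX7A2 held 86.6% ± 0.443 of the COX7A family in ADAR1 p110 cells and 86.3% ± 0.264 in GFP cells (SD, n = 3 each), the rest being COX7A2L, a supercomplex factor.

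Complex V had 18 tested members, 8 positive and 10 negative, with a median log2 fold change of -0.01. ATP5A1 and ATP5B encode the alpha and beta subunits, which form the catalytic head. ATP5A1 had 769, 850 and 849 CPM in ADAR1 p110 cells, against 856, 802 and 853 CPM in GFP cells, and ATP5B had 702, 781 and 773 CPM in ADAR1 p110 cells, against 763, 712 and 772 CPM in GFP cells. Both had overlapping groups and their lowest ADAR1 p110 and GFP libraries in replicates 1 and 2 of those groups. Per length, ATP5B was at 848 TPM in ADAR1 p110 cells and 836 TPM in GFP cells, and ATP5A1 at 198 TPM and 199 TPM, although the proteins stand in equal number in the enzyme. The table gives 1 length per gene, and its definition is not given in the sources used here, which bears on every TPM.

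Subunit c, the rotor ring of ATP synthase, is encoded by 3 genes with one mature protein. ATP5G1 held 36.8% ± 1.61 of their summed TPM in ADAR1 p110 cells and 37.1% ± 0.533 in GFP cells (SD, n = 3 each). ATP5G2 held 28.5% ± 0.581 in ADAR1 p110 cells and 27.3% ± 0.715 in GFP cells, and ATP5G3 34.6% ± 1.58 and 35.6% ± 0.784. By the means of both groups the order was ATP5G1, ATP5G3 and ATP5G2, and across the ADAR1 p110 libraries the shares of ATP5G1 (35.0% to 38.1%) and ATP5G3 (33.5% to 36.5%) overlapped. The order depends on the table's gene lengths: by counts over all libraries ATP5G1 was lowest, with 44147, against 50711 for ATP5G2 and 108025 for ATP5G3. Log2 fold changes were 0.00, 0.07 and -0.03 for ATP5G1, ATP5G2 and ATP5G3. Similarly, the copy UQCRHL held 2.81% ± 0.138 of the TPM it makes up with UQCRH in ADAR1 p110 cells and 2.95% ± 0.272 in GFP cells.

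Summed over all members, the level was 7978, 8821 and 8576 CPM in ADAR1 p110 cells, against 8760, 8069 and 8732 CPM in GFP cells. The groups overlapped, and the lowest library of each was again ADAR1 p110 replicate 1 or GFP replicate 2. Means were 8458 ± 434 CPM in ADAR1 p110 cells and 8520 ± 391 CPM in GFP cells (SD, n = 3 each), 0.993-fold. By complex, the sums were 2107 ± 88.6 CPM in ADAR1 p110 cells and 2109 ± 99.4 CPM in GFP cells for complex I, and 432 ± 12.6 CPM and 431 ± 15.1 CPM for complex II. Complex III summed to 1036 ± 71.6 CPM in ADAR1 p110 cells and 1052 ± 33.4 CPM in GFP cells, complex IV to 1513 ± 68.3 and 1524 ± 87.7 CPM, and complex V to 3370 ± 201 and 3405 ± 157 CPM. Each difference was smaller than the SD of either group. In bulk RNA, fewer cells with a transcript and less of it per cell cannot be told apart.

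The median level of the members varied more among the libraries of a group than between the groups. Of the 80 tested members, 36 had their lowest CPM in ADAR1 p110 replicate 1 and 34 in GFP replicate 2, 70 in all, and 7 had their highest in either of them. ADAR1 p110 replicate 2 was the highest library of 36. Relative to each gene's mean over the 6 libraries, the median member stood at -0.08, 0.05 and 0.01 log2 in ADAR1 p110 replicates 1, 2 and 3, and at 0.04, -0.07 and 0.04 in GFP replicates 1, 2 and 3. Cytosolic ribosomal protein genes moved with them, at -0.12, 0.08 and 0.02 in ADAR1 p110 replicates and 0.05, -0.11 and 0.08 in GFP replicates, as did mitochondrial ribosomal protein genes, at -0.08, 0.05 and 0.03 in ADAR1 p110 replicates and 0.03, -0.07 and 0.06 in GFP replicates. The median over the 18819 other tested genes stayed at about 0 in each library. What the pair of libraries has in common was not tested. The 2 libraries belong to different groups, and without them the median log2 fold change of the members was -0.01.

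**Figure D4:**
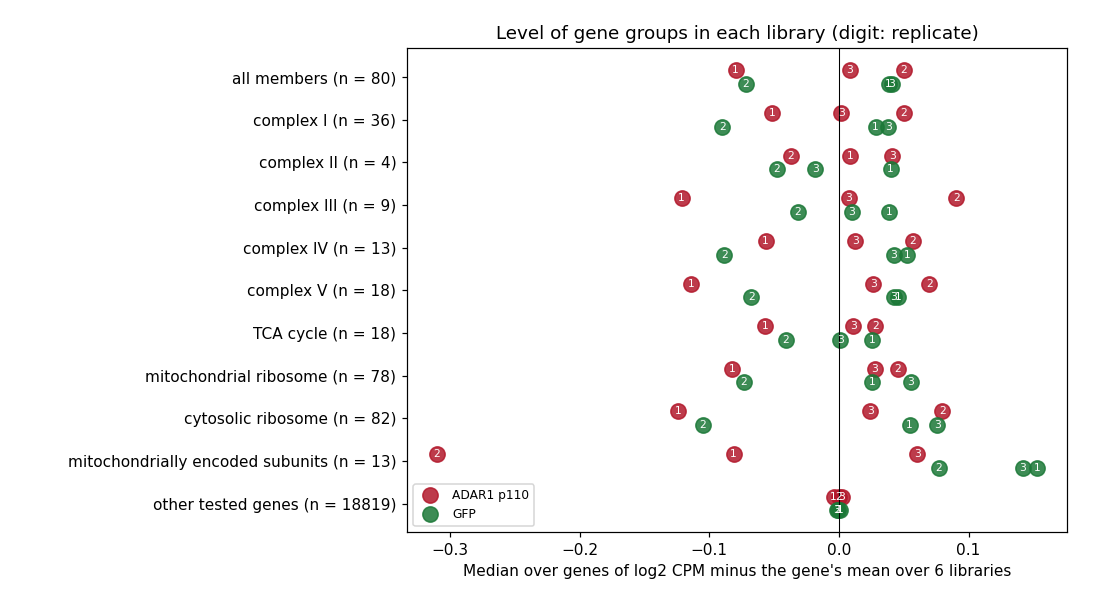
Median over the genes of each group of log2 CPM minus the gene's mean over the 6 libraries, per library, with ADAR1 p110 above GFP and the digit giving the replicate. ADAR1 p110 replicate 1 (-0.08) and GFP replicate 2 (-0.07) lie left of the others for the members and for both kinds of ribosomal protein genes, while mitochondrially encoded subunits lie lower in ADAR1 p110 replicate 2 than in any other library.

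Genes of the mitochondrial genome took 0.0980% to 0.145% of the counts of a library, and what sets this share was not tested. The 13 mitochondrially encoded subunits, which assemble with the members and are no members themselves, summed to 1100, 979 and 1352 CPM in ADAR1 p110 cells, against 1458, 1273 and 1373 CPM in GFP cells. The groups overlapped through ADAR1 p110 replicate 3, which lay above GFP replicate 2. Means were 1144 ± 190 CPM in ADAR1 p110 cells and 1368 ± 92.4 CPM in GFP cells (SD, n = 3 each), and all 13 log2 fold changes were negative. At an unadjusted p under 0.05, 8 of the 13 passed, against 18.6% of all tested genes, and DESeq2 called 2, limma-voom 1 and edgeR 1, against 4.91% of all tested genes by edgeR. The 13 varied together, 12 of them lying below their own mean in ADAR1 p110 replicate 2, so these counts are not 13 separate results. The edgeR call, MT-ND4, a proton-pumping subunit of complex I, was lower, at 37.7 ± 3.16 CPM in ADAR1 p110 cells and 46.4 ± 0.809 CPM in GFP cells (log2 fold change -0.30, edgeR quasi-likelihood adjusted p = 0.0273). Its call was lost when any library but ADAR1 p110 replicate 1 was left out, with log2 fold changes of -0.33 to -0.23 then. With ADAR1 p110 replicate 1 and GFP replicate 2 both left out, the call was kept (log2 fold change -0.32, edgeR adjusted p = 0.00284). That fit called 6 of the 13, against 13.4% of all genes. The lowest library for the summed CPM of the 13 was ADAR1 p110 replicate 2, which was the highest library of 36 nuclear members.

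Genes that build or drive the complexes are read against the shares over all tested genes, 4.91% by edgeR, 6.89% by DESeq2, 5.07% by limma-voom and 18.6% at an unadjusted p under 0.05. For edgeR without the pair ADAR1 p110 replicate 1 and GFP replicate 2 the share was 13.4%. Of 18 tested assembly factors of complex I, 1 was called higher and 0 lower by edgeR, 4 passed the unadjusted p, DESeq2 called 2 and limma-voom 1. The edgeR call was DMAC1, with 6.73, 7.71 and 7.42 CPM in ADAR1 p110 cells, against 5.45, 5.35 and 5.70 CPM in GFP cells (log2 fold change 0.41, edgeR quasi-likelihood adjusted p = 0.0226). Its call was lost when any library but ADAR1 p110 replicate 1 was left out, with log2 fold changes of 0.37 to 0.44 then. Without that pair of libraries the call of DMAC1 was kept (log2 fold change 0.44, edgeR adjusted p = 0.00632), and 5 of the 18 were called. None of 4 assembly factors of complex II, 6 of complex III, 22 of complex IV and 5 of complex V was called by edgeR, and 1, 1, 2 and 1 of them passed an unadjusted p under 0.05. DESeq2 and limma-voom called 0 genes of these 4 lists. EdgeR without that pair of libraries called 2, 0, 1 and 1 of them, against 13.4% of all genes. Of 14 regulators, 0 were called by edgeR, 2 passed the unadjusted p, DESeq2 called 2 and limma-voom 0, and edgeR without that pair called 2. Log2 fold changes of the regulators were positive for 6 and negative for 8 and ran from -0.43 to 0.22. The smallest edgeR adjusted p among them was 0.0893. The regulator NRF1 was at 13.7 ± 0.767 CPM in ADAR1 p110 cells and 13.5 ± 1.05 CPM in GFP cells, and PPARGC1A, a coactivator of mitochondrial biogenesis, at 4.02 ± 0.308 and 3.45 ± 0.313 CPM (log2 fold change 0.22, edgeR adjusted p = 0.334).

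Of 18 tested genes of the tricarboxylic acid cycle, which supplies NADH and succinate, 0 were called by edgeR, 3 passed the unadjusted p, DESeq2 called 1 and limma-voom 0. EdgeR without ADAR1 p110 replicate 1 and GFP replicate 2 called 4 of the 18, against 13.4% of all genes. Of 17 electron carriers and subunits that the symbol rule misses, edgeR, DESeq2 and limma-voom called 0, as did edgeR without that pair, with 1 at an unadjusted p under 0.05. Among them, CYC1, the cytochrome of complex III, was at 214 ± 19.7 CPM in ADAR1 p110 cells and 199 ± 9.85 CPM in GFP cells, cytochrome c (CYCS) at 270 ± 23.8 and 262 ± 6.46 CPM, and NDUFAB1, the acyl carrier protein of complex I, at 71.1 ± 2.53 and 70.0 ± 4.54 CPM (SD, n = 3 each). Of 78 mitochondrial ribosomal protein genes, 1 was called higher and 0 lower by edgeR, 8 passed the unadjusted p, DESeq2 called 3 and limma-voom 1. Without that pair edgeR called 8 of them. MRPS26, of the small subunit, was at 44.1 ± 3.03 CPM in ADAR1 p110 cells and 34.2 ± 2.76 CPM in GFP cells (log2 fold change 0.36, edgeR quasi-likelihood adjusted p = 0.0178), a call lost without ADAR1 p110 replicate 2 (log2 fold change 0.32), without ADAR1 p110 replicate 3 (0.36) or without GFP replicate 1 (0.30). The call was kept without that pair (log2 fold change 0.45, edgeR adjusted p = 0.000248).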

How the data were processed

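Total RNA of MDA-MB-231 cells was sequenced in 6 libraries, 3 per group, with groups and replicate numbers taken from the sample titles. The deposited values are raw counts per gene, made by the authors with STAR 2.5.2a alignment to hg19 and featureCounts 1.5.1, per the submitters' processing notes, which also name DESeq2 1.4.5 and R 3.1. The strand setting and the handling of reads with several alignments were not given in the sources used here. Values of overlapping, antisense and copied genes are therefore uncertain.

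Genes were filtered with filterByExpr (minimum count 10), TMM-scaled and compared by the quasi-likelihood test of edgeR 4.0.16 (R 4.3.3) on group alone, with Benjamini-Hochberg adjustment over the 18899 genes tested. An adjusted p under 0.05 was called. The biological coefficient of variation was 8.00%. TPM used the table's gene lengths. Alternatives used limma 3.58.1, DESeq2 1.42.0, other scalings, no filter, a replicate block and libraries left out. The fit was tested on simulated data, with 50 genes of 10 CPM or more changed at each size. It recovered 48% of changes of 1.2-fold, 82% of 1.3-fold and 100% of 1.5-fold, so small changes are often missed. Each simulated count was drawn independently, with the spread typical of its level. Shifts shared by many genes of a library and genes with a wider spread were not simulated, and recovery for such genes may be lower. Library profiles used log2(CPM + 0.5). Replicates of a group differed by a chi-square of 8.80 to 40.9 per degree of freedom, more than counting error alone gives. That value does not show that the cultures were separate. Each library counted as its own sample because the labels call the replicates biological.

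Members, lists and tests were chosen with earlier results of these data known, and no p over the members as a list is given. Named genes were the largest positive and negative change and highest TPM per complex, catalytic core subunits, alternative forms of a subunit, CYC1, NDUFAB1, CYCS and called genes of the other lists. NDUFB6, NDUFA7, NDUFA13, UQCRC1, SDHD, COX5A, NRF1 and PPARGC1A were named after their values were seen. Some genes are not reported here.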

Additional observations from a re-analysis of the deposited data

How the results depend on the processing

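The number of genes called over the whole table was 927. It was 1553 with no filter on low counts, 2605 without ADAR1 p110 replicate 1 and GFP replicate 2, and 396 to 1812 when each library was left out in turn. Members called higher were 0, and became 1 with no filter, 1 with the DESeq2 Wald test, 0 to 1 when each library was left out and 2 without that pair. Members called lower were 0 under every alternative run. The median log2 fold change of the members ran from -0.05 to 0.03 and the log2 ratio of their summed CPM from -0.05 to 0.03 over the libraries left out, under the pair left out, the scalings, no filter and the narrower member list, and changed sign with them around 0. Of 520 values of 40 named genes under 13 alternatives, 491 kept their size and side of the threshold, 15 lost a call, 5 gained one, 9 moved by over 1 SE, and no called gene turned its sign. Replicate numbers showed no pairing of the libraries, with correlations of same-numbered deviations of -0.20, -0.15 and 0.10 and no library nearest to its own number. These correlations cannot decide whether cultures were paired, since ADAR1 p110 replicate 1 and GFP replicate 2 weigh on the deviations of every library. With the replicate block 508 genes and 0 members were called, and the calls of MT-ND4 and DMAC1 were lost. Scaling by library size alone moved the median of all genes to 0.03 in log2, against 0.00 under TMM. The summed CPM was not recomputed for the other tests or the block, which bring no library scaling beyond those tried. The 4 widest intervals were those of members under 1 CPM.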
